A study of Vitis rotundifolia with 36 samples.

Results

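The cluster described here is a run of 50 neighbouring gene models on chromosome 16 of muscadine grape (Vitis rotundifolia). Its members are the models whose identifiers read evm.model.chr16 followed by a running number from 1770 to 1840. The files list 50 of the 71 possible numbers, out of 26394 gene models in all, and members are called by their number below. The window was chosen from expression values of these same libraries, so the differences between layers and cultivars given here are descriptions, and no p-value is given for a member.

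The libraries are of messenger RNA from ripe berries, and 3 cultivars were used. Alachua has a thick skin and purple fruit, Granny Val an intermediate skin and green fruit, and Supreme a thin skin and purple fruit. Each berry was divided into 4 layers numbered from the outside inwards, and each of the 12 combinations of cultivar and layer has 3 replicate libraries, 36 in all. The protocol calls the outermost layer an epidermis bearing its cuticle and the ones beneath it hypodermis, then mesocarp, then endocarp. The tags of the samples instead begin with cuticle, go on with exocarp and endocarp and end with seed, so numbers are used here in place of names. None of the groups received a treatment that the labels name. Nothing in the labels tells if the 3 replicates of a group are different vines or berries, and their spread may be partly technical.

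The skin of a grape berry is a thin, cuticle-bearing epidermis over a few layers of thicker-walled hypodermal cells, and it is the part of the fruit that accumulates most defence compounds, wax and, in purple fruit, pigment. In plant genomes, genes of one family often lie side by side as tandem copies, and such copies can be used in the same tissue or in different ones. The files pair these identifiers with no gene name or description, and 0 of 26394 identifiers matched the reference gene table at hand. Whether the members are copies of one another is therefore not known here, and no role is given to any of them. If some are near-identical, reads shared between them could be split or lost in the counting, which makes the value of a single member less certain than the sum.

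Values are given as CPM, the count of a gene model relative to the total of its library after scaling for composition. They are not divided by transcript length, which the files do not give, so a larger CPM of one member than of another does not say that it has more transcripts. Library totals ran from 19057538 to 61782400 counts, and a count of 0 in 1 library allows up to 3 counts, or between 0.0423 and 0.144 CPM. Of the 50 members, 45 passed the filter on low counts. The models 1798, 1802 and 1809 had no count in any library, 1778 had 25 counts in all, and 1827 had 46 counts, all of them in layer 1.

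Some libraries stood apart from their labels. A score for layer 1 and a score for the inner layers were set in the Granny Val libraries from 362 and 279 gene models, no members among them, and each of the 24 Alachua and Supreme libraries was placed with the nearest Granny Val layer. By this measure 7 libraries lay nearest another layer than the one on the label. The library labelled Supreme layer 2 replicate 1 and that labelled Alachua layer 3 replicate 1 lay nearest layer 1. The libraries labelled Alachua layer 1 replicate 1, Supreme layer 1 replicate 1 and Alachua layer 4 replicates 2 and 3 lay nearest layer 2, and Alachua layer 2 replicate 3 lay nearest the inner layers. All libraries keep their labelled group below, and the results that rest on these 7 are also given for the remaining 29.

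The members fell into 5 stretches along the chromosome. A stretch high in layer 1 is a run of at least 3 members with counts whose layer 1 mean was at least 2 times their mean over layers 2 to 4, and the others lie between such runs. This rule was written after the values were seen, to mark boundaries already visible. The first, 1771 to 1780, has 8 members with 189303 counts in all. The second, 1781 to 1809, has 21 members, 18 of them with counts, and held 842512 of the 1855521 counts of the whole cluster. The third, 1816 to 1830, has 14 members with 780385 counts, the fourth, 1831 to 1838, has 5 members with 6595 counts, and the last 2 members, 1839 and 1840, had 36726.

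**Figure D1:**
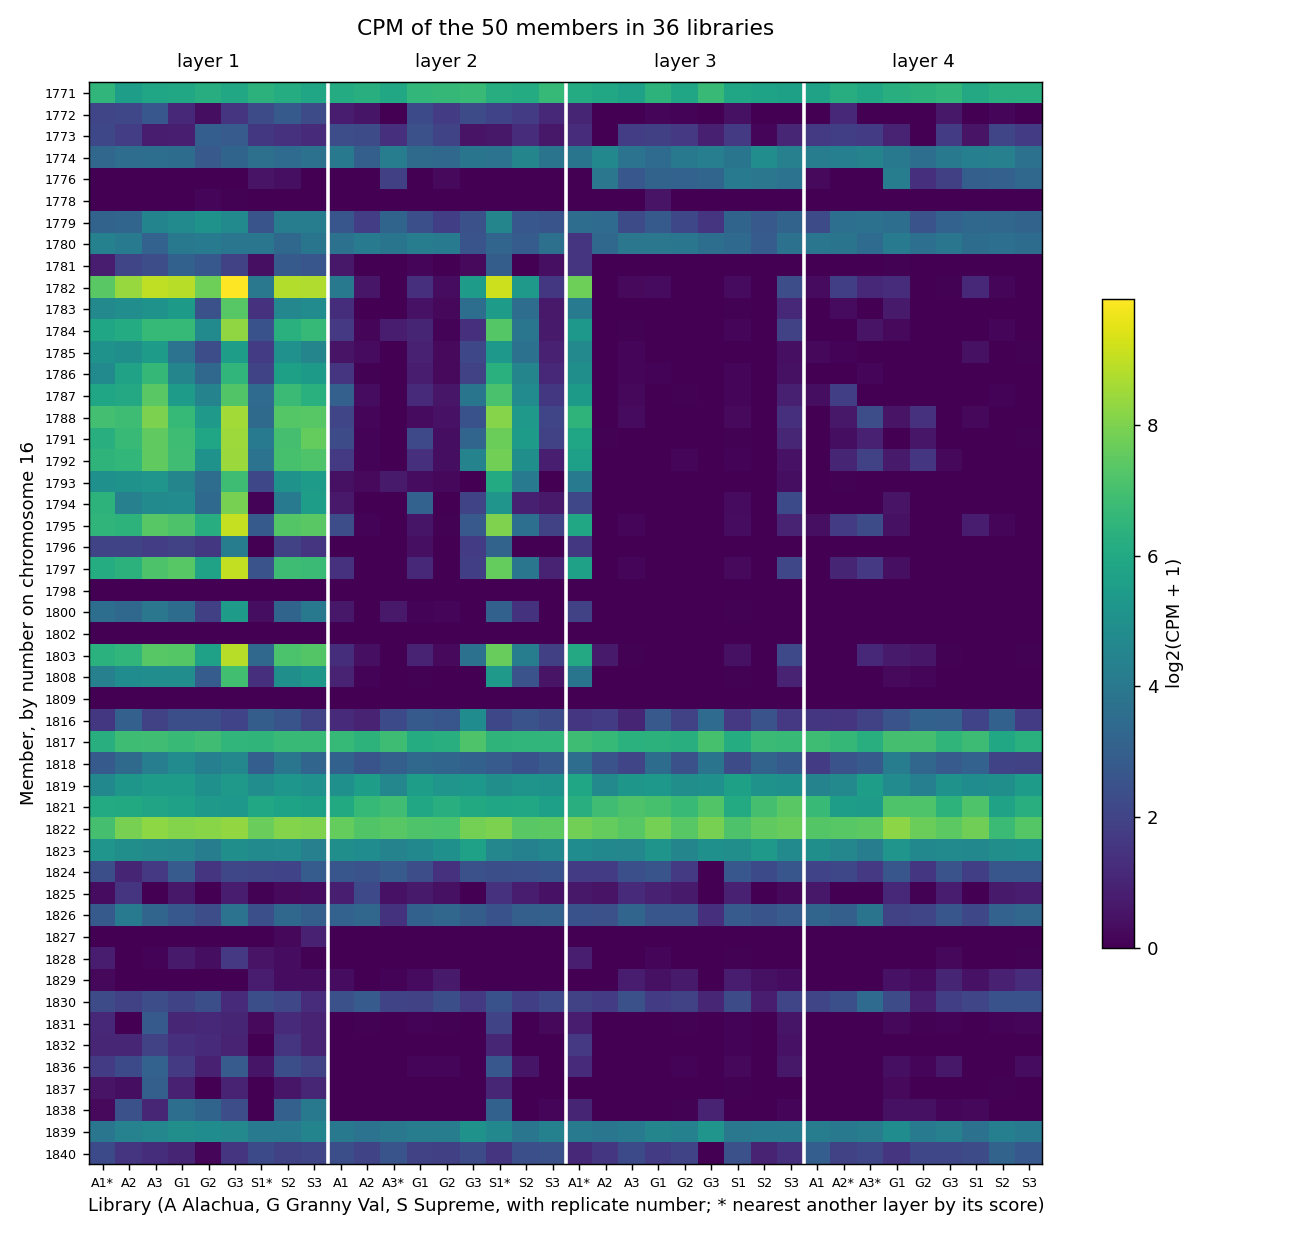
Each row is a member by its number and each column a library, grouped by layer, with log2(CPM + 1) as colour. The block from 1781 to 1808 is bright in layer 1 and dark in most libraries of layers 2 to 4, except Supreme layer 2 replicate 1 and Alachua layer 3 replicate 1, and 14 members above and below it have a count in every library.

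The stretch from 1781 to 1809 held the most members high in layer 1. All 18 of its members with counts had their highest layer mean in layer 1, and in 14 of them layer 1 had the highest group mean in each of the 3 cultivars. Over the whole cluster the corresponding counts were 34 and 22 of 50 members. Layer 1 held the highest layer mean for all 5 members from 1831 to 1838, for 4 of 8 from 1771 to 1780 and for 6 of 14 from 1816 to 1830. The rule that marks the stretches uses the same layer means and largely fixes these counts, so they describe the stretches and nothing is read from their difference.

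In Alachua layer 1 the summed CPM of the stretch was 1041, 1246 and 2128 in replicates 1 to 3. In Granny Val layer 1 it was 1575, 617 and 4877. In Supreme layer 1 it was 102, 1649 and 1767. The 9 libraries of the outermost layer therefore spanned a wide range, with Granny Val replicate 3 far above and Supreme replicate 1 far below the others. In Granny Val replicate 3 the stretch took 0.483% of all counts of the library.

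Layer 2 was far lower in most libraries. In Alachua it gave 48.0, 1.96 and 2.00 CPM. In Granny Val it gave 22.6, 2.88 and 135.5 CPM. In Supreme it gave 2560, 306 and 22.2 CPM. The first of these Supreme libraries, one of the 7 nearest another layer, exceeded 8 of the 9 layer 1 libraries.

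In layer 3 the stretch was at 770, 0.665 and 1.14 CPM in Alachua, and replicate 1 is again one of the 7. In Granny Val layer 3 it was at 0.297 and 0.136 CPM, with 0 counts in replicate 3, which allows up to 0.0778 CPM. In Supreme layer 3 it was at 2.02 CPM, 0 counts in replicate 2, which allows up to 0.0619 CPM, and 25.3 CPM. Apart from the Alachua library, the third layer thus lay near or under the levels of layer 2.

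Layer 4 held 0.972, 10.8 and 16.9 CPM in Alachua. It held 5.28, 4.91 and 0.297 CPM in Granny Val. It held 2.45, 0.394 and 0.156 CPM in Supreme. No library of layer 4 reached the lowest library of layer 1.

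The means of the groups follow from these values. Layer 1 had 1472 ± 578 CPM in Alachua, 2356 ± 2235 in Granny Val and 1173 ± 929 in Supreme (SD, n = 3 each). Layer 2 had 17.3 ± 26.6 CPM in Alachua, 53.7 ± 71.6 in Granny Val and 963 ± 1390 in Supreme (SD, n = 3 each). The ratio of layer 1 to layer 2 was 84.9 in Alachua, 43.9 in Granny Val and 1.22 in Supreme. Without replicate 1 of both layers the Supreme ratio was 10.4, from means of 1708 and 164 CPM (n = 2 each). Each ratio rested on single libraries. In Alachua it ran from 58.8 without layer 2 replicate 2 to 742 without layer 2 replicate 1. In Granny Val it ran from 20.4 without layer 1 replicate 3 to 185 without layer 2 replicate 3. In Supreme it ran from 0.818 without layer 2 replicate 3 to 7.14 without layer 2 replicate 1, and it was under 1 on leaving out any 1 of replicates 2 and 3 of either layer.

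Over the 3 cultivars, layer 1 had 1667 ± 1354 CPM and layer 2 had 345 ± 837 (SD, n = 9 each), a ratio of 4.84, and the ranges overlapped. Layer 3 had 88.8 ± 255 CPM and layer 4 had 4.68 ± 5.74 (SD, n = 9 each). Without the 7 libraries nearest another layer, layer 1 had 1980 ± 1362 CPM (SD, n = 7) and layer 2 had 77.1 ± 111 (SD, n = 7), a ratio of 25.7. The remaining layer 1 libraries then ran from 617 to 4877 CPM and the other 22 libraries from 0 to 306, without overlap. Since the score that named the 7 libraries is itself a measure of layer 1 transcripts, some of this separation is built into the choice. In tissue samples such as these, fewer cells of a type and less RNA per cell cannot be told apart.

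**Figure D2:**
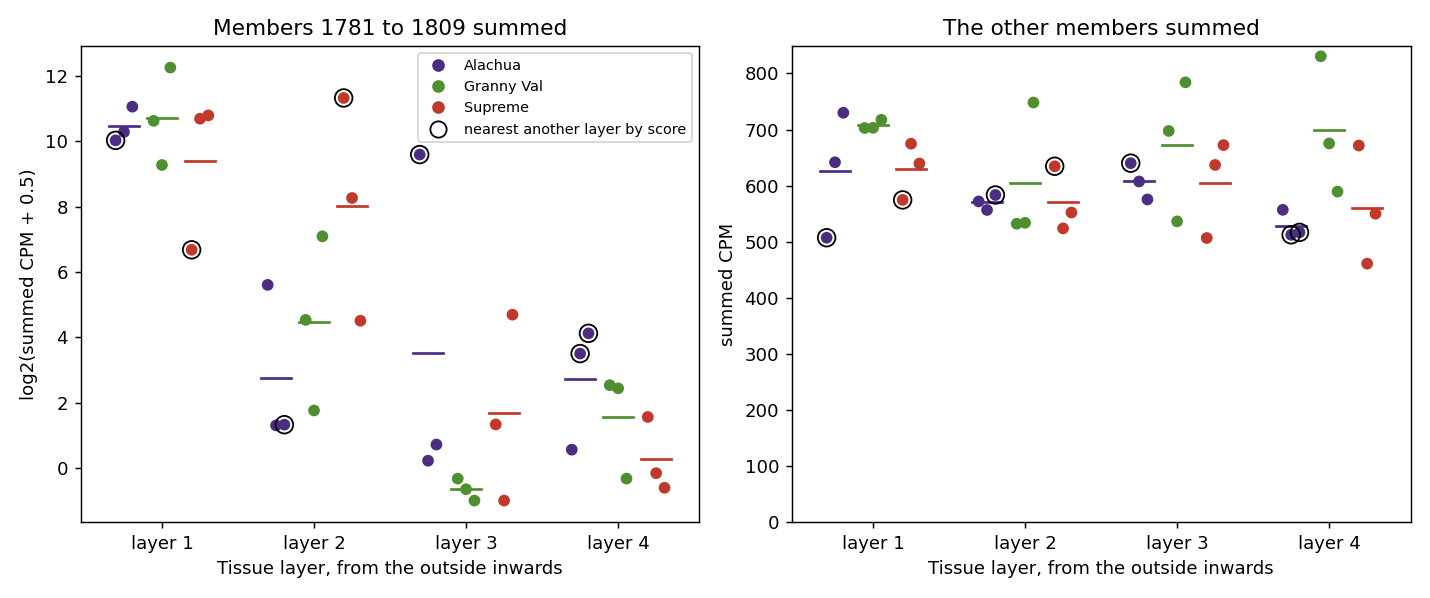
Points are single libraries by layer and cultivar, lines are means of the plotted values of 3 libraries, and rings mark the 7 libraries nearest another layer. On the left, the sum over 1781 to 1809 on a log2 scale has layer 1 high and layers 2 to 4 low, with Supreme layer 2 replicate 1 and Alachua layer 3 replicate 1 among the high points, and on the right the sum over the other members stays between 461 and 831 CPM.

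The members outside the stretch were set apart by its layer 1 means. That their sum shows no 2-fold rise in layer 1 is therefore largely fixed by that choice. The sum also covers 1831 to 1838, whose few counts barely enter it. The sum was 655 ± 73.5 CPM in layer 1, 582 ± 70.9 in layer 2, 628 ± 84.9 in layer 3 and 596 ± 113 in layer 4 (SD, n = 9 each), and the 36 libraries lay between 461 and 831 CPM. The sum over all members was 2321 ± 1392 CPM in layer 1, 926 ± 860 in layer 2, 717 ± 274 in layer 3 and 601 ± 113 in layer 4 (SD, n = 9 each). With each group given equal weight, the log2 ratio of the summed CPM of layer 1 to layer 2 was 1.32. It was 0.37 for layer 2 to layer 3 and 0.26 for layer 3 to layer 4, each smaller than the pooled within-group SD of the log2 sum, 0.65. Without the 7 libraries the ratio of layer 1 to layer 2 was 2.00.

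The member with the most counts in the stretch was 1782, with a mean of 123.5 CPM over the 36 libraries. In layer 1 it stood at 167, 337 and 499 CPM in Alachua, 467, 213 and 978 in Granny Val, and 14.7, 438 and 426 in Supreme. In layer 2 it stood at 15.1 and 0.505 CPM and 0 counts in Alachua, at 1.57, 0.265 and 43.2 CPM in Granny Val, and at 577, 41.1 and 2.04 CPM in Supreme. The groups overlapped because of the first replicates of the Supreme layers.

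Among the 15 libraries of layers 3 and 4 outside the 7, no member of the stretch exceeded 4.07 CPM, the value of 1782 in Supreme layer 3 replicate 3. The mean of 1782 over the 9 libraries was 393 ± 272 CPM in layer 1 and 75.7 ± 189 in layer 2 (SD). Its fitted log2 difference between these layers was 3.90 with a standard error of 1.33, and it was not called in the fit of all libraries. It was called among the 29 libraries, with a fitted log2 difference of 5.07 and a standard error of 1.23.

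The next members by mean CPM in the stretch were 1788, 1795, 1803, 1791 and 1797. In layer 1 the model 1788 ran from 9.81 to 380.5 CPM with a median of 125 CPM, and in layer 2 from 0 to 280.5 with a median of 3.19 CPM. In layer 1 the model 1795 ran from 6.03 to 531 CPM with a median of 141 CPM, and in layer 2 from 0 to 257 with a median of 2.91 CPM. For both members the lowest layer 1 library was Supreme replicate 1 and the highest layer 2 library was Supreme replicate 1.

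The median over layer 1 was 137.5 CPM for 1803, with 1.43 CPM in layer 2. For 1791 the medians were 113.5 and 3.59 CPM, and for 1797 they were 108 and 1.13 CPM. The least abundant members of the stretch with counts were 1781 and 1796, with layer 1 means of 3.98 ± 2.44 and 3.88 ± 4.98 CPM (SD, n = 9).

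Most members of the stretch were highest in the same libraries. In all 18, Supreme layer 2 replicate 1 was higher than Supreme layer 1 replicate 1, and 15 of 18 were highest in Granny Val layer 1 replicate 3. The 9 highest libraries of a member included Supreme layer 2 replicate 1 in 18 of 18 members and Alachua layer 3 replicate 1 in 15, and Supreme layer 1 replicate 1 in 0. As a result, no member (0 of 18) had all 9 layer 1 libraries above all other libraries. Over all gene models tested it was also 0. Among the 29 libraries, 11 of the 18 had all 7 layer 1 libraries above the rest, beside 3.05% of all gene models tested. The stretch was marked by its layer 1 means and the 29 libraries were kept by a layer 1 score, so nothing is read from this excess. No share over all gene models stands beside the counts of members by their highest libraries, and nothing is read from them. The layer 1 score was 3.09 in Supreme layer 2 replicate 1 and -0.10 in Supreme layer 1 replicate 1. In Granny Val layer 1 replicate 3 it was 3.54, the highest of all libraries.

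Across the 36 libraries, Spearman's rho between members of the stretch had a median of 0.86 over 153 pairs, with a range from 0.73 to 0.97. Within the 9 libraries of layer 1 alone the median was 0.75 and the range from -0.17 to 1.00. The points are libraries that share depth and tissue, so these are descriptions. Members from 1831 to 1838 had a median rho of 0.68 with those of the stretch, whereas members from 1816 to 1830 had a median of 0.07 with it and 0.06 among themselves. The rule that marks the stretches uses the layer means of these same libraries. It favours a high median within the stretch and a low one between the stretch and 1816 to 1830. It does not set the median among 1816 to 1830, and nothing is read from the differences between these medians.

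The summed CPM of the stretch ran parallel to the layer 1 score of the library, with a rho of 0.92 over the 36 libraries. It was 0.85 over the 27 libraries of layers 2 to 4 and 0.53 over the 9 of layer 1. The score was set on gene models high in layer 1 of Granny Val, whose libraries are among the 36. The stretch was marked by its own layer 1 means, so the rho over the 36 libraries is largely fixed by these choices. The layer 1 score was -0.10 in Supreme layer 1 replicate 1, where the stretch was at 102 CPM, and 3.09 in Supreme layer 2 replicate 1, where it was at 2560 CPM. In Alachua layer 3 replicate 1 the score was 2.01 and the stretch at 770 CPM. Alachua layer 1 replicate 1, with a score of 1.26, kept 1041 CPM. The part of these scores in the levels of the stretch was not tested.

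**Figure D3:**
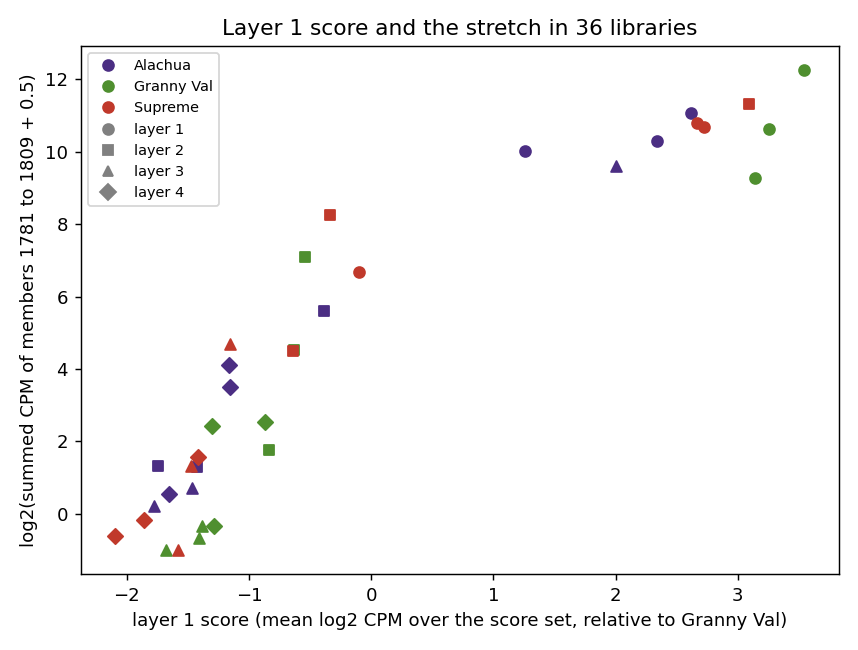
Each point is a library, with its layer 1 score on the x axis and log2 of the summed CPM of 1781 to 1809 plus 0.5 on the y axis, coloured by cultivar and shaped by labelled layer. Supreme layer 2 replicate 1 and Alachua layer 3 replicate 1 lie among the layer 1 libraries at the upper right, and Supreme layer 1 replicate 1 lies with the higher layer 2 libraries.

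Members from 1831 to 1838 followed the stretch at far lower levels. Their sum was 5.29, 9.64 and 24.6 CPM in Alachua layer 1, 16.8, 11.6 and 13.3 in Granny Val layer 1, and 0.658, 15.2 and 20.99 in Supreme layer 1. Outside layer 1 it reached 18.3 CPM in Supreme layer 2 replicate 1 and 5.29 in Alachua layer 3 replicate 1. The same 3 libraries that broke the pattern of the stretch thus broke it here.

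In layer 1, 1838 was at 0.192, 4.55 and 1.11 CPM in Alachua, 11.0, 8.15 and 4.04 in Granny Val, and 0 counts, 7.37 and 15.1 CPM in Supreme. In layer 2 it had counts in Supreme alone, at 7.54 CPM in replicate 1 and 0.141 CPM in replicate 3. The means were 5.72 ± 5.16 and 0.853 ± 2.51 CPM (SD, n = 9), a log2 ratio of means of 2.75. Its fitted log2 difference, 7.51 with a standard error of 1.86, was far larger. Alachua and Granny Val layer 2 had no counts, so the fitted value and its standard error depend on the prior count, and neither is a bound. For 1832, with 1.29 ± 0.749 and 0.121 ± 0.364 CPM (SD, n = 9), the log2 ratio of means was 3.41 and the fitted value 6.51 with a standard error of 1.76, again with 2 groups at 0.

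A count in every library was found for 14 members, all outside 1781 to 1809 and 1831 to 1838. The largest was 1822, which ran from 108 to 315 CPM over the 36 libraries. Its layer means were 253 ± 58.2 CPM in layer 1, 179 ± 38.8 in layer 2, 192 ± 33.5 in layer 3 and 183 ± 52.8 in layer 4 (SD, n = 9 each). The fitted log2 difference between layers 1 and 2 was 0.50 with a standard error of 0.16, under the 2-fold minimum.

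The model 1817 ran from 61.0 to 144 CPM and 1771 from 45.8 to 106, so that in each the highest library was at 2.36 and 2.31 times the lowest. Layer means of 1817 lay between 95.7 and 102 CPM, closer together than the SD within any layer. The model 1821, unlike the stretch, was lowest in layer 1, with 53.1 ± 9.63 CPM in layer 1, 72.0 ± 22.2 in layer 2, 120 ± 33.6 in layer 3 and 93.6 ± 43.3 in layer 4 (SD, n = 9 each). It was not called in any of the contrasts between neighbouring layers.

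2 members of the first stretch stood out from their neighbours. In layer 1, 1779 was at 7.88, 8.34 and 21.3 CPM in Alachua, 26.1, 33.8 and 26.1 in Granny Val, and 5.01, 17.1 and 17.4 in Supreme. In layer 2 it was at 5.36, 2.50 and 8.11 CPM in Alachua, 4.31, 2.59 and 4.48 in Granny Val, and 22.1, 5.45 and 4.93 in Supreme. It was called higher in layer 1, with a fitted log2 difference of 1.48 and a standard error of 0.35. With all libraries kept, only in Granny Val did the 2 layers not overlap. In Alachua and Supreme the overlap came from libraries nearest another layer than their label. Without those libraries, 1779 ran from 8.34 to 33.8 CPM in layer 1 and from 2.50 to 5.45 CPM in layer 2. The fitted log2 difference was then 2.16.

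The model 1776 ran the other way. In layer 3 it was at 0 counts, 14.5 and 5.43 CPM in Alachua, 8.01, 7.64 and 8.53 in Granny Val, and 16.4, 14.5 and 12.8 in Supreme. In layer 2 the highest library was Alachua replicate 3, one of the 7, at 2.71 CPM, and the remaining 8 were at or below 0.206 CPM. In layer 1 no library exceeded 0.457 CPM. Layer 4 held 16.8, 1.63 and 2.67 CPM in Granny Val and 7.13, 7.35 and 9.09 in Supreme, but at most 0.199 CPM in Alachua. The Alachua libraries of these layers without counts were layer 3 replicate 1 and layer 4 replicates 2 and 3, all among the 7. The low level in Alachua layer 4 thus rests on replicate 1 alone, at 0.199 CPM, and no cultivar difference is read from it.

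One further member, 1828, had 208 counts in layer 1 and 0 counts in all 9 libraries of layer 2. Against a floor of 3 counts over those 9 libraries, its log2 ratio was at least 5.98. Its mean in layer 1 was 0.512 ± 0.670 CPM (SD, n = 9), so that it stayed among the members with the fewest counts.

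Every gene model with enough counts was tested between neighbouring layers and between cultivars with edgeR's quasi-likelihood test, and called at a Benjamini-Hochberg adjusted p under 0.05 and at least a 2-fold difference. Between layers 1 and 2, 19 of the 45 members tested were called, all 19 higher in layer 1 and 0 lower. Over all 19241 gene models tested, 4.82% were called in this contrast, 2.91% higher and 1.91% lower. The median fitted log2 difference was 3.32 over the members tested and 0.00 over all gene models. As the window was chosen from such values, nothing is read from the excess.

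Of the 19 members called, 13 lay in 1781 to 1809, 4 in 1831 to 1838, and the other 2 were 1779 and 1828. Fitted log2 differences in the stretch were positive for all 18 members, from 3.10 to 6.02 with a median of 4.23. These values average the cultivars on a log scale. The log2 ratios of the layer means of CPM, which give more weight to the highest libraries, ran from 1.71 to 3.44 with a median of 2.22. Without the 7 libraries, 18 of 18 were called, with a median fitted value of 5.39 and a median ratio of means of 4.70. Over all gene models 11.7% were then called, 7.42% higher in layer 1. The stretch was marked by its own layer 1 means, and the 7 libraries were named by a layer 1 score. Both choices favour calls higher in layer 1 within the stretch, and nothing is read from their number.

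The count of 19 depended on single libraries. It dropped to 5 without Supreme layer 2 replicate 2 and to 6 without Supreme layer 2 replicate 3 or Alachua layer 2 replicate 3. It dropped to 7 without Alachua or Granny Val layer 2 replicate 2, and to 8 without Granny Val layer 2 replicate 1. It dropped to 10 without replicate 3 of Alachua or Granny Val layer 1, and to 11 without replicate 2 or 3 of Supreme layer 1. The highest count was 24, without Supreme layer 2 replicate 1. Among the 29 libraries 26 of 47 members tested were called higher and 0 lower, beside 11.7% of all gene models, and all 19 earlier members were among the 26.

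**Figure D4:**
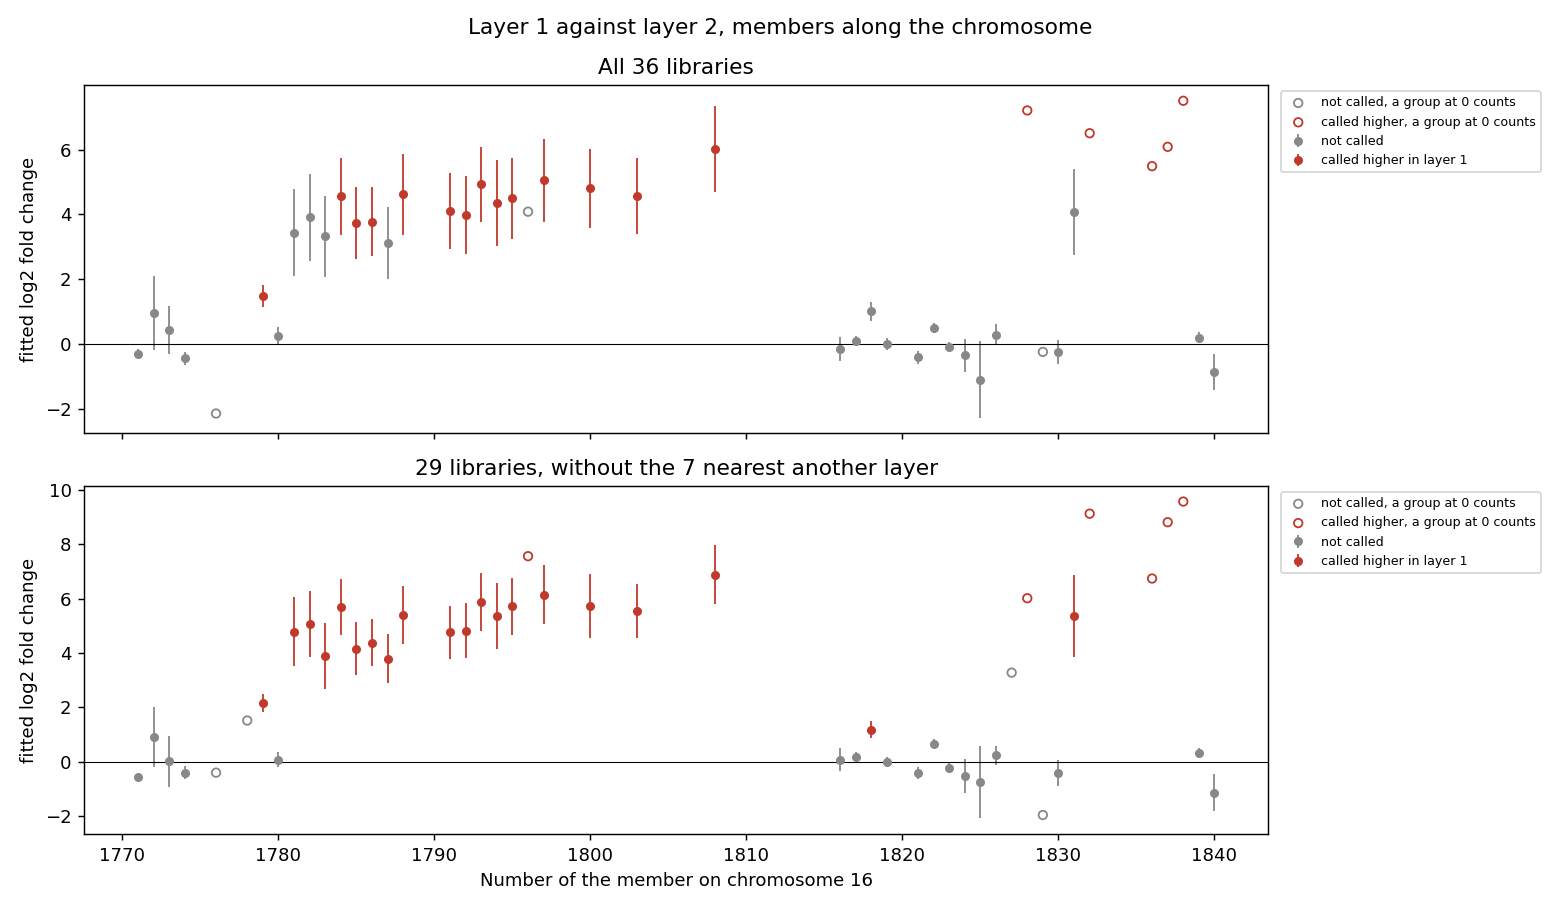
Fitted log2 differences between layers 1 and 2 are plotted against the number of the member, with bars of 1 standard error, for all 36 libraries above and for 29 below. Open points have no bar because at least 1 of the 6 groups had no count and the fitted value depends on the prior count. Points of 1781 to 1808, filled or open, lie between 3.10 and 6.02 in the upper panel, while most members on either side lie near 0.

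Between layers 2 and 3, 1 member was called higher in layer 2 and 1 lower, beside 5.15% of all gene models tested, of which 1.62% were higher and 3.52% lower. The higher one was 1787, with 20.8 ± 43.8 CPM in layer 2 and 4.74 ± 13.8 in layer 3 (SD, n = 9), and a fitted log2 difference of 4.25 with a standard error of 1.29. The lower one was 1776, with 0.326 ± 0.896 and 9.75 ± 5.25 CPM (SD, n = 9), and a fitted log2 difference of -7.37 with a standard error of 1.41. In Supreme layer 2 the model 1776 had no counts, so that this value depends on the prior count, as does the -9.57 fitted among the 29 libraries.

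All 18 members of the stretch had a positive fitted difference between layers 2 and 3, with a median of 3.75, but 14 of them had a group without counts. The log2 ratios of layer means had a median of 2.00. The call of 1787 rested on many libraries, since the count of members called higher was 0 on leaving out any 1 of 11 of the 18 libraries of these layers. They were replicates 1 and 2 of Alachua layer 2, 2 and 3 of Alachua layer 3, 3 of Granny Val layer 2, all 3 of Granny Val layer 3, 1 and 2 of Supreme layer 2, and 2 of Supreme layer 3. Without Alachua layer 3 replicate 1 it was 17 higher and 1 lower, without Alachua layer 2 replicate 3 it was 3 and 1, and without Supreme layer 3 replicate 3 it was 2 and 1. Among the 29 libraries 17 members were called higher and 1 lower, beside 10.4% of all gene models, and 16 of the 17 belonged to the stretch. With DESeq2 on all 36 libraries 17 members were called in either direction, beside 8.22% of all gene models.

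Between layers 3 and 4 edgeR called 0 of the 45 members, beside 0.0104% of all gene models, and 2 members had an unadjusted p under 0.05, beside 6.43% of all gene models. DESeq2 called 5 members, beside 1.13% of all gene models. In these layers the sum over the stretch was at or below 5.28 CPM in 14 of the 18 libraries, the others being Alachua layer 3 replicate 1, Alachua layer 4 replicates 2 and 3 and Supreme layer 3 replicate 3.

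Cultivars were compared over the 4 layers with equal weight, and then within layer 1, a comparison added after the values were seen. Alachua and Granny Val gave 2 members higher in Alachua and 1 lower, beside 10.7% of all gene models called, 5.59% higher and 5.1% lower. The clearest was 1816, with 2.50 ± 1.68 CPM over the 12 Alachua libraries and 7.42 ± 6.71 over those of Granny Val (SD), and a fitted log2 difference of -1.50 with a standard error of 0.33. Its group means were 1.95 ± 1.51 CPM in layer 2 of Alachua and 13 ± 12.7 in layer 2 of Granny Val (SD, n = 3), whereas in layer 1 they were 4.04 ± 2.75 and 3.79 ± 0.730.

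The 2 called higher in Alachua were 1787 and 1795, both in the stretch. For 1787 the means were 28.3 ± 50.2 CPM in Alachua and 19.0 ± 43.1 in Granny Val (SD, n = 12), with a fitted log2 difference of 4.28 and a standard error of 1.32. For 1795 the mean of CPM went against the fit, at 34.1 ± 53.4 CPM in Alachua and 62.5 ± 154 in Granny Val (SD, n = 12), with a fitted value of 3.81 and a standard error of 1.37. Fitted values average the layers on a log scale, where the lowest layers count as much as layer 1. Since 1787 had no counts in Granny Val layer 4 and 1795 none in Granny Val layer 3, both fitted values depend on the prior count. Both calls were lost without Alachua layer 2 replicate 1 or Alachua layer 4 replicate 2, leaving 1 member, and the count was 5 without Alachua layer 3 replicate 2. Among the 29 libraries 0 members were called higher in Alachua and 2 lower, 1816 and 1818, beside 7.86% of all gene models. With DESeq2 on all 36 libraries 10 members were called, beside 13.7% of all gene models.

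Alachua and Supreme gave 0 of 45 members called by edgeR, beside 6.74% of all gene models, with 4 at an unadjusted p under 0.05, beside 24.3%. DESeq2 called 7 members, beside 9.52% of all gene models. Leaving out Alachua layer 3 replicate 1 gave 3 calls, all lower in Alachua, and leaving out Supreme layer 2 replicate 3 gave 1. Granny Val and Supreme also gave 0 of 45 by edgeR, beside 4.92% of all gene models, with 7 at an unadjusted p under 0.05, beside 23.3%. DESeq2 called 11 members, beside 7.7% of all gene models. Leaving out Supreme layer 4 replicate 1 gave 1 call.

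Within layer 1, where the stretch was high, edgeR called 0 members between Alachua and Granny Val, beside 3.04% of all gene models, and 0 had an unadjusted p under 0.05, beside 18.9%. Between Alachua and Supreme it called 0 members, beside 0.442% of all gene models, and 1 had an unadjusted p under 0.05, beside 8.68%. Between Granny Val and Supreme it called 0 members, beside 1.12% of all gene models, and 4 had an unadjusted p under 0.05, beside 14.3%. DESeq2 called 0 members in each of the 3, beside 7.61%, 1.72% and 4.17% of all gene models in the same order. At this number of replicates the cultivars were not distinguishable in the level of any member in layer 1, which does not show that the levels were alike.

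The log2 ratio of the summed CPM of all members in layer 1 was -0.55 for Alachua to Granny Val, 0.22 for Alachua to Supreme and 0.77 for Granny Val to Supreme. Without Granny Val layer 1 replicate 3, the highest library, the first became 0.22 and the last 0.00. Without Granny Val layer 1 replicate 2 they became -0.91 and 1.13. The direction between Granny Val and the other cultivars thus rested on 1 library. So did that of Alachua to Supreme, which became -0.17 without Supreme layer 1 replicate 1, one of the 7 libraries nearest another layer. Without Supreme layer 1 replicate 3 it was 0.48.

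The counts of the stretch were split unevenly among its members. In the 9 libraries of layer 1, 1782 held between 14.4% and 34.5% of the counts of the stretch, with a median of 24.1%. Together with 1788, 1791, 1792, 1795, 1797 and 1803, the other members whose median share was above an equal split of 5.56%, it held between 66.8% and 83.5%, with a median of 74.1%. Shares of some less abundant members varied widely, and that of 1794 ran from 0.0719% to 8.10%. These are shares of counts, not scaled for length.

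For 6 of the 18 members the shares of the 3 Granny Val libraries of layer 1 lay apart from all 6 libraries of Alachua and Supreme, 5 below them and 1 above. These members were picked after their shares were seen, and shares of 1 total are not independent. A share is defined within the stretch alone, so no percentage over all gene models stands beside this count, and nothing is read from it. The model 1785 held between 0.653% and 0.917% in Granny Val and between 1.26% and 3.14% in the other cultivars. The share of 1788 was between 6.35% and 7.80% in Granny Val and between 9.29% and 12.1% in the others. Also below were 1786, 1787 and 1792.

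The share of 1797 was higher in Granny Val, between 8.46% and 10.7%, than in the others, between 4.69% and 6.91%. The nearest pair of libraries was closest for 1792, at 7.42% and 7.62%. In CPM, 4 of the 45 members tested had the 3 Granny Val libraries of layer 1 apart from the other 6, beside 13.2% of all gene models tested. They were 1772, 1779, 1818 and 1839, none of them in the stretch.

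**Figure D5:**
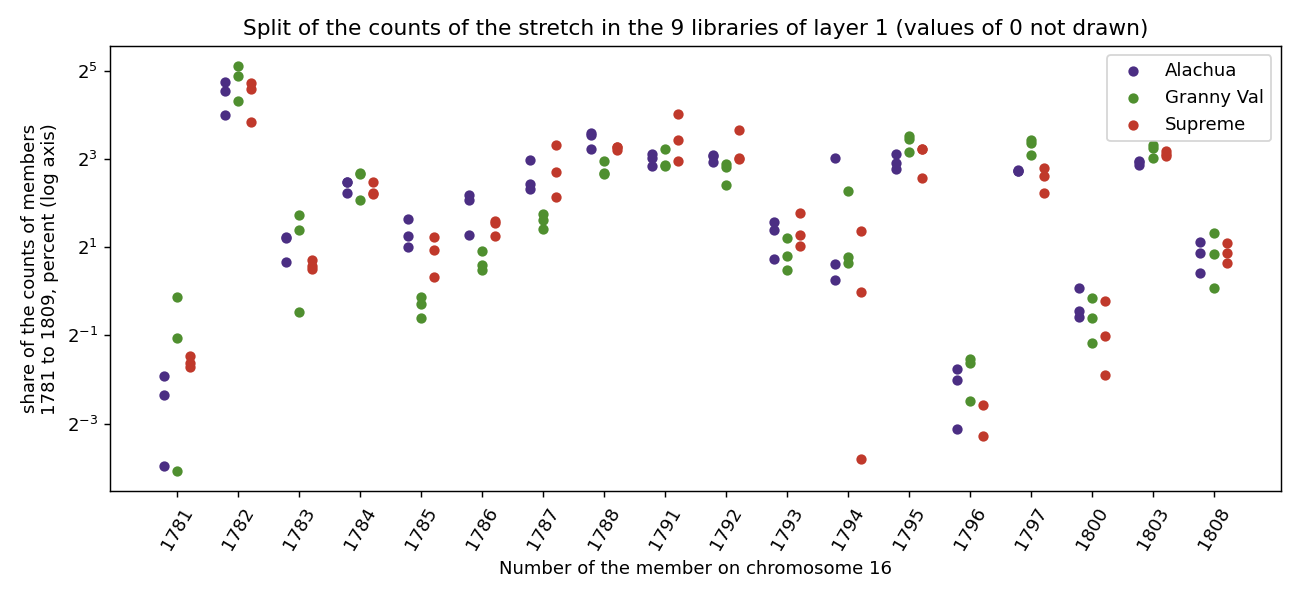
For each member of 1781 to 1809 with counts, points give its share of the counts of the stretch in the 9 libraries of layer 1 on a log axis, coloured by cultivar. The green points of Granny Val lie under all others for 1785, 1786, 1787, 1788 and 1792 and above all others for 1797.

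Shares in the 2 libraries labelled with another layer but high in the stretch are given for 1785 and 1797 only, without a test. In Supreme layer 2 replicate 1, 1785 held 1.49% and 1797 held 7.54%, the former within and the latter above the range of the Supreme layer 1 libraries, from 4.69% to 6.91%. In Alachua layer 3 replicate 1, 1785 held 3.24% and 1797 held 6.64%, against 2.02% to 3.14% and 6.61% to 6.78% in Alachua layer 1.

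The models just outside the window had low counts except for 1 of them. Before it, 1767 and 1768 had means of 0.227 and 0.00308 CPM, and 1769 had a mean of 23.2 CPM with a range from 12.4 to 37.6. After it, 1841, 1842 and 1843 had means of 0.000944, 0.0650 and 0.844 CPM. The first member inside, 1771, had a mean of 71.5 CPM, and the last one, 1840, had layer means of 2.21 CPM in layer 1 and 3.63 in layer 2. No model in the 20 listed before the window was called between layers 1 and 2 (0 of 10 tested), and 1 of 15 tested in the 20 listed after it was higher in layer 1. Over all gene models tested, 2.91% were higher and 1.91% lower. With so few tested, nothing is read from the counts on either side.

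Other runs of neighbouring gene models gave smaller counts in the same contrast, set beside the 19 of 45 here. On chromosome 16, models 80 to 140, 7 of 25 tested were higher in layer 1 and 0 lower. In a run on chromosome 15, 2 of 27 were higher and 1 lower, and in a run on chromosome 4, 1 of 38 was higher and 0 lower. Over all gene models tested, 4.82% were called in this contrast, 2.91% higher and 1.91% lower. The difference between the counts of these runs was not tested, since each run was chosen with results of these data known.

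Among 9509 gene models outside the window with a mean of at least 10 CPM, the one most like the sum of all members over the 36 libraries was evm.model.chr11.1754, with a Spearman's rho of 0.846, followed by evm.model.chr9.243 with 0.845. The former had group means of 58.1, 91.4 and 38.1 CPM in layer 1 of Alachua, Granny Val and Supreme, and between 8.45 and 31.0 CPM in the other groups. For the stretch alone, a comparison added after the values were seen, the nearest were evm.model.chr2.525 and evm.model.chr9.273, each with a rho of 0.929. The first of these had 572, 931 and 460 CPM in layer 1 of the 3 cultivars, 256 in Supreme layer 2 and 60.2 in Alachua layer 3.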

How the data were processed

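Poly(A) RNA libraries were made with a directional kit, per the labels' protocols. The tools named, per the submitters' processing notes, are STAR, HTSeq 0.11.2, cutadapt, DESeq2 and SAMtools. What each did, the genome build and the strand setting were not given in the sources used here; reads of overlapping genes on opposite strands may therefore be mixed. The authors deposited whole-number, unscaled read counts for each gene model. The 5 special counter lines were left out of library totals; they held 7.73% to 14.6% (no feature), 1.06% to 1.42% (ambiguous) and 2.36% to 3.33% (not unique) of the reads.

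CPM (TMM scaling) and tests were computed with edgeR 4.0.16 in R 4.3.3: filterByExpr by group, 12 group means, 24 residual degrees of freedom, quasi-likelihood F test, Benjamini-Hochberg adjustment over 19241 gene models. The floor of 3 counts is at 95% confidence and covers counting error only. Each standard error is the absolute fitted log2 difference divided by the square root of its F statistic. It is approximate, and where a group had no counts it depends on the prior count, as the fitted value does. Scripts were tested on simulated counts with the same spread for all gene models and no library unlike its label. That test does not cover the wider spread of some members or the 7 libraries nearest another layer. The stretches and the members leading the shares follow rules written after the values were seen. Alternatives included DESeq2 1.42.0, other scalings and filters, a replicate block and leaving out libraries.

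Members named were the 10 with the highest mean CPM, the 2 called with the largest fold in each direction per contrast at a mean of at least 1 CPM, the models at the edges, and the 2 outside models most alike; others were picked after their values were seen. The members and the lists used for comparison were chosen with earlier results of these data known.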

Additional observations from a re-analysis of the deposited data

How the results depend on the processing

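Most alternatives left the counts of members called within 1.5 times and the summed ratios within 1 SD of replicates; those that did not follow, and the cause was not tested. With DESeq2 the calls were 17 between layers 2 and 3 (8.22% of all gene models), 5 between layers 3 and 4 (1.13%), 10 for Alachua against Granny Val (13.7%), 7 for Alachua against Supreme (9.52%) and 11 for Granny Val against Supreme (7.7%). With no fold minimum they were 6 for Alachua against Granny Val and 2 for Granny Val against Supreme, and 1 for the latter when the style of the libraries' names was a covariate. No share over all gene models stands beside the counts with no fold minimum or with this covariate. They are given only as changes in the counts of members. Without the 7 libraries nearest another layer, 18 were called between layers 2 and 3, and the log2 ratio of summed CPM of layer 1 to layer 2 was 2.001.

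Leaving out 1 library at a time gave 5 to 24 calls between layers 1 and 2, 1 to 18 between layers 2 and 3, 0 between layers 3 and 4, 1 to 5 for Alachua against Granny Val, 0 to 3 for Alachua against Supreme, 0 to 1 for Granny Val against Supreme, and 0 in each layer 1 comparison. The log2 ratio of summed CPM ran from 1.036 to 1.838, from -0.143 to 0.598 and from 0.061 to 0.35 for the layers in order. For Alachua against Granny Val, Alachua against Supreme and Granny Val against Supreme it ran from -0.546 to 0.094, from -0.311 to 0.152 and from -0.235 to 0.47, and in layer 1 from -0.908 to 0.222, from -0.173 to 0.484 and from -0.002 to 1.127.

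Replicate numbers showed no pairing by this measure. Deviations of same-numbered libraries of a cultivar had a median correlation of -0.011 over 54 pairs, 10 of them over 0.1, and those of a layer 0.009 over 36 pairs, 9 over 0.1. For libraries of other numbers the medians were 0.015 over 108 pairs, 33 over 0.1, and -0.002 over 72 pairs, 11 over 0.1. With 3 libraries per group and 7 libraries nearest another layer, the measure cannot exclude pairing. With a block for each replicate number within a cultivar, the calls numbered 15 between layers 1 and 2, and 1 in the contrast of layer 2 to layer 3. With a block for the replicate number shared by the cultivars, they numbered 2 when Alachua was set against Granny Val. The counts with these blocks, and those with 1 library left out, also stand without a share over all gene models. They too are given only as changes in the counts of members. The depth limits what can be said of members near 0, since 3 counts correspond to up to 0.144 CPM.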
